A study of Mus musculus with 4 samples.

Results

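The regions described here are the chromatin immunoprecipitation (ChIP) peaks that lie inside the bodies of protein-coding genes. A peak was counted when its summit, the base of highest signal, fell between the start and the end of at least 1 protein-coding gene of RefSeq. Of the 722 deposited peaks, 347 met this rule (48.1%, Wilson 95% interval 44.4 to 51.7%) and 375 did not. The 347 peaks lay in 337 genes, which is 1.55% of the 21779 coding genes in the table. The share of coding genes with a summit, 1.55%, is the level against which every count of genes below is read.

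The series examined the sites that the glycolytic enzyme GAPDH occupies when it enters the nucleus under stress. Microglia were taken from the cortex of C57BL/6 mice that had received lipopolysaccharide (LPS), a bacterial cell wall product, by intraperitoneal injection on 4 consecutive days. There were 2 libraries precipitated with the antibody AceGAPDH and 2 input libraries of chromatin without precipitation, all 4 from LPS-treated mice, and no untreated group was analysed here. The cells were picked with beads against CD11b, a surface protein that microglia share with other myeloid cells, and the labels do not say whether animals were pooled. The peak lists hold no expression, so the labelled cell type could not be checked on them. One list was deposited for the whole series with 1 score and 1 summit height per peak and no value per library. No result therefore has a replicate check, and no test between libraries or conditions was possible. Intervals are 95% intervals and cover counting error only, read totals per library are unknown, and peaks were treated as items of 1 list and not as replicates.

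GAPDH is best known for its step in glycolysis in the cytosol. Under stress it can be modified, bind partners such as the ubiquitin ligase SIAH1 and move to the nucleus, where acetyltransferases including CBP and PCAF are among its known partners. A gene body spans exons and introns from the transcription start to the end of the transcript, and in long genes nearly all of it is intron. Very long genes are common among those for neuronal adhesion molecules, channels and receptors. Exon and intron positions were not used here.

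Promoter windows of 3 hosts are shown: Robo2 because its peak overlaps the window, Cst3 because its summit lay closest inside the start of a gene, and Ift172 because it had the highest score near a start. Each window runs from 250 bases before to 50 bases after a RefSeq start on GRCm38.p6 (the assembly of mm10) and is written 5′ to 3′ on the strand of the gene. In the window of Robo2, at chr16:75092721-75093020 on the minus strand, capitals mark the 132 bases covered by the peak. In the windows of Cst3 (chr2:148875463-148875762, minus strand) and Ift172 (chr5:31291065-31291364, minus strand), capitals mark the 50 bases after the start.
Robo2: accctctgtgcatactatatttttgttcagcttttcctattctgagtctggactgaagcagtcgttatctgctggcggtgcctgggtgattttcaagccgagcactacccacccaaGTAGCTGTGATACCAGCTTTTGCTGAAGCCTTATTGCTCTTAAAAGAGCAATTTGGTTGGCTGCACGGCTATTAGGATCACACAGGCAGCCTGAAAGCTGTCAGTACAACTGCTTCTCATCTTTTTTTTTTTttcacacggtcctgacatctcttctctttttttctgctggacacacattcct
Cst3: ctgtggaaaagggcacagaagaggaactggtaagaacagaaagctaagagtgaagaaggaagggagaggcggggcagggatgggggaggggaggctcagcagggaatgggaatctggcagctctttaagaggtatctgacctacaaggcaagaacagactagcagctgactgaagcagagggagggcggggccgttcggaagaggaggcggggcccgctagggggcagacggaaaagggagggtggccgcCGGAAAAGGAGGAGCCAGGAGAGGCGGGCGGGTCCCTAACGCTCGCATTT
Ift172: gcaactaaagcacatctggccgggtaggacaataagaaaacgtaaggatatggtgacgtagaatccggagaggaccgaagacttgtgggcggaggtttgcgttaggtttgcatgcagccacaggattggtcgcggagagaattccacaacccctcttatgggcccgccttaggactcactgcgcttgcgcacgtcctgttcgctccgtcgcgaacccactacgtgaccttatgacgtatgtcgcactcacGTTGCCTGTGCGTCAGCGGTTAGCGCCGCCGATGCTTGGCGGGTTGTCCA
Robo2 encodes an axon guidance receptor for Slit ligands. Of the 290 peaks whose host has a promoter window in the table, its peak was the only one to overlap such a window. The rule limits this count, because a summit inside a gene cannot lie in the 250 bases before its outermost start. Nothing is therefore drawn from it about promoters. The Robo2 summit lay 51 bp before 1 of 3 listed Robo2 starts, deep in the gene body, at 354.6 kb from the outermost start. The peak was of ordinary size (score 56.42, height 7). The Cst3 and Ift172 peaks began 37 and 119 bp beyond their windows, on the transcribed side, with summits 135 and 223 bp after the start. The motifs GAGGAAGT (bound by PU.1), TGANTCA (AP-1) and CACGTG (an E-box), searched on both strands, were found in none of the 3 windows. Among 21263 windows of this length at 17492 coding genes, 3.13%, 6.99% and 7.84% hold them, and 2.84%, 5.93% and 7.22% of 388 windows of host genes do. The Ift172 window had 27 CpG dinucleotides, the Cst3 window 13 and the Robo2 window 5, where the median was 16 in windows of hosts and 13 in all.

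Peaks in coding genes were low and narrow, as were those outside. The median height was 8 in both sets, with quartiles of 7 and 9. The median score was 56.54 inside (interval of the median 55.78 to 57.29) and 57.12 outside (56.54 to 58.92), and these intervals overlap. The median length was 164 bp inside (160 to 166 bp) and 158 bp outside (154 to 162 bp). At the median height of 8 the Poisson interval runs from 3.45 to 15.8 and takes in both quartiles. The sets differed at the very top of the list. Scores of at least 100 were held by 16 peaks inside (4.61%, Wilson interval 2.86 to 7.36%) and 32 outside (8.53%, 6.11 to 11.8%), with overlapping intervals. Scores of at least 200 were held by 1 peak inside (0.288%, 0.0509 to 1.61%) and 16 outside (4.27%, 2.64 to 6.82%), and these intervals do not overlap. Of the 20 highest-scoring peaks of the whole list 2 lay in coding genes, of the top 50 there were 17, of the top 100 there were 42 and of the top 200 there were 87.

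**Figure D1:**
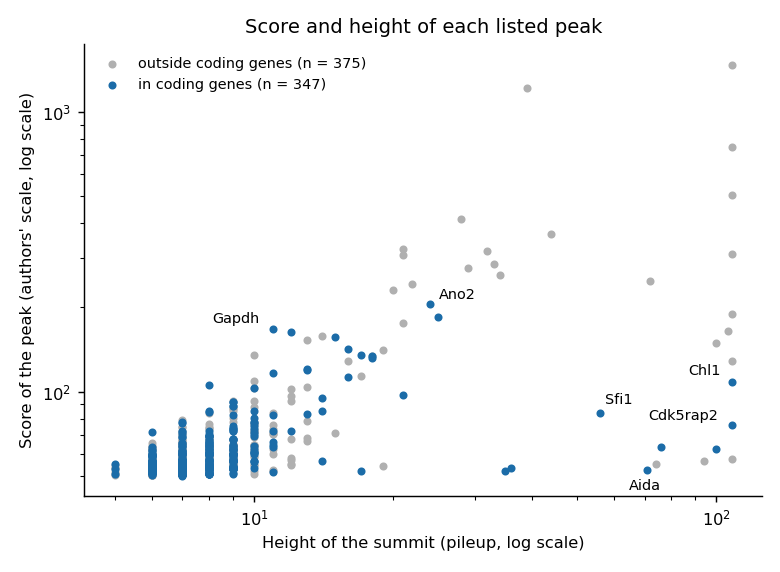
Score against height of every listed peak, both on log scales, for 347 peaks in coding genes (blue) and 375 outside (grey). The blue points reach a score of 205.41 at most, and those with heights from 35 upward lie at scores from 51.89 to 108.23.

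The highest-scoring peaks in coding genes fell at every part of their hosts. The first was in Ano2, a calcium-activated chloride channel gene (score 205.41, height 24, chr6:125876904-125877074), at 53.3% of the way from start to end. The next was in Dpp9, which encodes an intracellular dipeptidyl peptidase that holds inflammasome sensors in check, at 58.5% (score 184.09, height 25). Gapdh followed with 3 peaks between 79.2 and 94.0% of its 4.616 kb, that is toward the end of the transcript, scoring 156.41 to 167.61 at heights of 11 to 15. Gapdh has many processed copies elsewhere in the mouse genome, and the treatment of reads that fit several copies is not stated in the labels. Acacb, for the mitochondrial form of acetyl-CoA carboxylase, had its summit at 25.7% (score 142.08), and Myo7a, for an unconventional myosin, at 86.8% (134.95). Ybx3, for a cold-shock domain protein, held one at 46.1% (133.7), and the zinc finger gene Zfp949 at 22.8% (132.21). Npffr2, a neuropeptide receptor gene, was met at 16.4%, Fam227b at 2.52%, and Synj2, for a phosphoinositide phosphatase of vesicle traffic, at 57.2%. Pdcd2l (score 102.84) had its summit at 34.5%. Plxdc2 (112.66) and Sctr, the secretin receptor gene (91.89, height 9), have no strand in the tables used, and no oriented position is given. The others among the 20 highest were Chl1 (108.23), Ift172 (105.78), the predicted gene Gm40364 (97.47, height 21), Eif2ak3, which encodes the endoplasmic reticulum stress kinase PERK (95.11, height 14, at 8.10% of the gene), and Cyren (91.4, height 9, at 48.2%).

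High pileups inside genes had lower scores than those outside. Spearman's rho across peaks was 0.48 inside (n = 347) and 0.57 outside (n = 375), given as a description since both values come from the same peak call. Heights of at least 20 were reached by 11 peaks inside and 24 outside. Of these, 8 inside and 3 outside had scores under 100, and the median score was 75.85 inside and 269.6 outside. Chl1, a neural adhesion gene (chr6:103648996-103649304), and Cdk5rap2, a centrosomal gene (chr4:70378071-70378351), both had a height of 108, the largest in the list, with scores of 108.23 and 75.85. A further 7 peaks outside genes had the same height. The gene 2210408I21Rik had a height of 100 with a score of 62.48, Cldn34d on chromosome X had 76 with 63.18, and Aida, a gene of early development, had 71 with 52.38. The Gapdh peaks had scores from 156.41 upward at heights of 15 or less. Scores of at least 100 at heights under 20 were not particular to Gapdh. Inside genes 16 peaks scored 100 or more, and 13 of them, with the 3 of Gapdh included, stayed under a height of 20. Outside genes 11 of 32 such peaks did. At the level of the Gapdh scores, the other peaks inside genes were those of Ano2 (205.41, height 24) and Dpp9 (184.09, height 25). The next inside genes, in Acacb, scored 142.08 at a height of 16.

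Repeated summits in 1 gene were rare. Of the 337 hosts, 328 held 1 summit, 6 held 2 and 3 held 3. The distance between neighbouring summits ranged from 340 bp to 621.6 kb. In Gapdh the summits were 340 and 345 bp apart. In Ptpra, a receptor tyrosine phosphatase gene, 2 summits lay 3.188 kb apart (scores 64.11 and 65.57), and in Upp2, a uridine phosphorylase gene, 13.2 kb apart (71.97 and 54.69). Sfi1, a centrosomal gene, held 3 summits at gaps of 4.072 and 11.3 kb with heights from 35 to 56. Fmnl2, a formin gene, and Rcan2, for a calcineurin regulator, each held 2 summits about 30 kb apart (30.1 and 31.7 kb). In Zfhx3, a transcription factor gene, 2 of the 3 summits were 1.784 kb apart and the other lay 190.7 kb away. Nrg3, for a neuregulin, and Lrp1b, for a lipoprotein receptor, held 2 summits each, 447.9 and 621.6 kb apart. Outside Gapdh and Sfi1 all scores in these genes lay between 51.2 and 71.97 and all heights between 6 and 9.

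Host genes were long. Their median length was 107.2 kb (interval 88.9 to 124.7 kb, quartiles 38.2 and 235.2 kb), 6.22 times the 17.2 kb of all coding genes. Of the hosts 52.8% were at least 100 kb long, against 11.1% of coding genes. A long gene offers more bases to a summit, and shares are therefore also given by gene length. Genes of at least 100 kb make up 59.3% of the summed length of coding genes (1049 Mb) and held 53.3% of the peaks. The gene at the middle of the summed length measures 138.6 kb, and the median host of a peak was shorter, at 107.3 kb (89.3 to 125.1 kb).

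Peak density was lowest in the longest genes. Over all coding genes it was 0.331 peaks per Mb of gene length. Genes under 10 kb held 16 peaks in 32.4 Mb, or 0.494 per Mb (Poisson interval 0.283 to 0.803), and 3 of these peaks are those of Gapdh, without which the value was 0.402. Genes of 10 to 50 kb held 0.385 per Mb (0.307 to 0.477), those of 50 to 100 kb 0.351 (0.269 to 0.450) and those of 100 to 500 kb 0.345 (0.292 to 0.406). The 227 genes of 500 kb and over held 37 peaks in 192.9 Mb, or 0.192 per Mb (0.135 to 0.264). This was 0.530 times the density of shorter genes (exact conditional interval of the ratio 0.366 to 0.746). The interval of the longest class does not overlap that of all genes under 500 kb (0.362 per Mb, 0.323 to 0.405). Per gene the order is the opposite, since 33 of the 227 longest genes (14.5%) and 14 of the 7860 shortest (0.178%) held a summit. Gene length had little relation with score (Spearman's rho -0.09) or height (-0.16) across the 347 peaks.

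**Figure D2:**
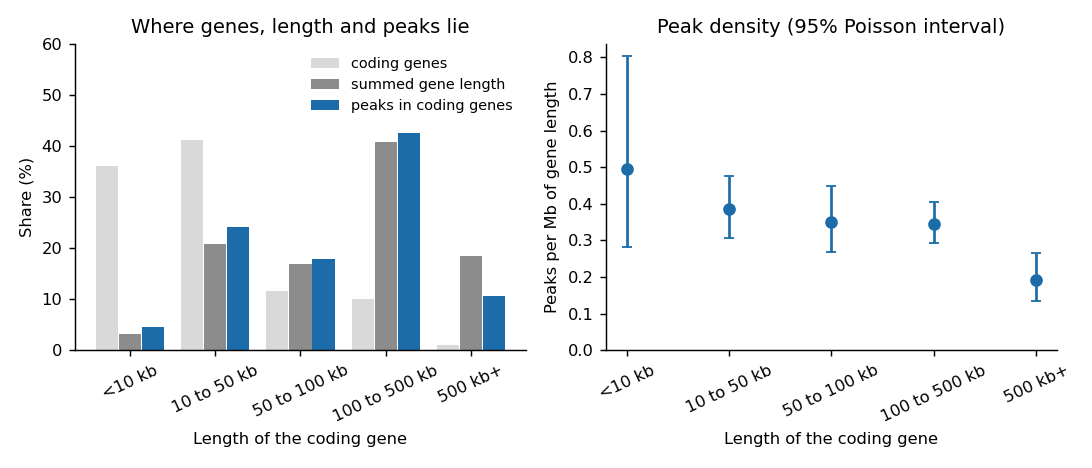
Left, share of all coding genes, of their summed length and of the 347 peaks in 5 classes of gene length. Right, peaks per Mb of gene length in the same classes, with Poisson 95% intervals; the value falls from 0.494 in genes under 10 kb to 0.192 in genes of 500 kb and over.

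The longest hosts were Lrp1b (2058 kb), Macrod2 (1998 kb), which encodes an ADP-ribose hydrolase, Dlg2 (1973 kb), for a postsynaptic scaffold, and Ctnna3 (1574 kb), for an alpha-catenin. Robo2, Dpp10, which encodes a potassium channel partner, and Tenm2, a teneurin adhesion gene, followed at 1555, 1514 and 1230 kb. Prkg1, for a cyclic GMP-dependent kinase, and Cdh12, a cadherin gene, measured 1201 and 1150 kb. Tenm2 had the highest score among these genes (82.23, height 11), Ctnna3 came next (64.11, height 11), and the others scored from 53.17 to 60.34. The 10 shortest hosts ran from 2.185 kb (Gm40364) to 6.295 kb (Cyren). They included Cst3 (3.791 kb), which encodes cystatin C, Hmgb2 (4.157 kb), for a chromatin protein, Gapdh, Hoxc10 (5.103 kb), a homeobox gene, and Esp31 (6.207 kb). The remaining 3 were Gm40367, Pramel15 and Gm2128.

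Summits lay at all parts of the gene, with a higher number at the start. Strand came from the promoter table and was given for 281 of the 337 hosts, with 290 peaks. Of these 290, 45 (15.5%, Wilson interval 11.8 to 20.1%) lay in the first 10% of the gene, where an even spread gives 29. The last 10% held 32 (11.03%, 7.93 to 15.2%), and the 8 equal parts between held from 21 to 32. The 5 parts nearest the start together held 151 peaks (52.1%, interval 46.3 to 57.8%) and the 5 nearest the end held 139. In genes of 10 to 50 kb the first 10% held 15 of 74 peaks and the last 10% held 7. In genes of 100 to 500 kb they held 15 and 16 of 122.

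Measured in kilobases, more summits lay in the first 5 kb than in the last. The first 5 kb held 50 of the 290 peaks (17.2%, interval 13.3 to 22.0%) and the last 5 kb held 28 (9.66%, 6.76 to 13.6%). These intervals overlap slightly, and either window makes up 9.29% of the gene length. Without the 3 Gapdh peaks, which lie within 5 kb of both ends, these were 47 and 25. In genes of 10 to 50 kb the first 5 kb held 28 peaks and the last 10. Longer genes held 6 and 3 (50 to 100 kb), 3 and 3 (100 to 500 kb) and 1 and 0 (500 kb and over). The windows lie at separate ends in all these classes, so the difference lay mainly in genes of 10 to 50 kb. From 1 to 5 kb inside the start the density was 0.647 peaks per Mb (interval 0.458 to 0.888), and at the same distance from the end it was 0.323 (0.195 to 0.505), again with overlapping intervals. From 5 to 10 kb the order was the opposite, with 0.411 from the start and 0.559 from the end. Beyond 100 kb from the start it was 0.276 per Mb (0.219 to 0.343). The last class is made up of long genes alone, so distance and gene length cannot be told apart there.

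**Figure D3:**
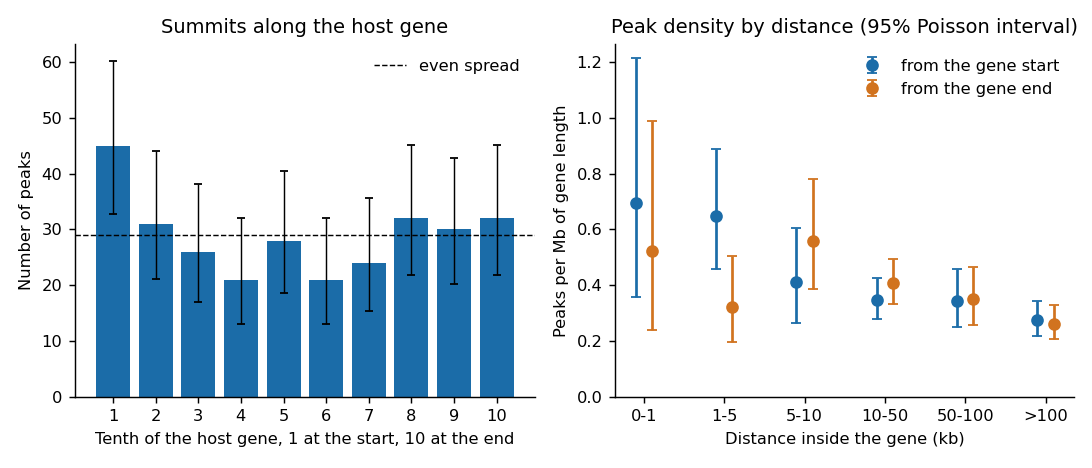
Left, number of summits in each of 10 equal parts of the host gene for 290 peaks whose host has a strand, with Poisson 95% intervals and a dashed line at 29, the even spread. Right, peaks per Mb of gene length by distance from the gene start (blue) and the gene end (orange); the classes from 1 to 5 kb stand at 0.647 and 0.323.

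Close to the start, within 1 kb, lay 12 summits (4.14%, interval 2.38 to 7.09%; this window is 2.11% of the gene length). The closest to the start of the gene was in Cst3, a gene for a secreted protease inhibitor that microglia express strongly, at 135 bp (score 73.51, height 10). Nhlrc3 followed at 196 bp, Trim34a, a TRIM family gene, at 279 bp and Hmgb2 at 332 bp (66.02, height 8). Rin2, for an exchange factor of RAB5, had its summit at 374 bp (56.54, height 10). Ift172, which encodes a subunit of the intraflagellar transport machinery, had the highest score of the group (105.78, height 8) at 500 bp from the gene start. Stk11ip lay at 637 bp, the cytochrome gene Cyp4f15 at 712 bp, Def8, a gene of lysosome positioning, at 790 bp, and Ubxn4, of endoplasmic reticulum protein degradation, at 796 bp. Atxn1l, an ataxin-1 relative, and Macc1 lay at 883 and 941 bp. In Rin2 and Macc1 the promoter table lists a start other than that of the gene row, 14015 and 52071 bp beyond the summit. The group scored 52.93 to 105.78 (median 60.72) at heights of 7 to 10. Of the hosts without strand, Serinc1, Hoxc10 and Slc16a6 had their summits within 1 kb of one or the other end (579, 651 and 675 bp).

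Some summits lay near a start other than the outermost one. Of the 290 peaks, 15 had their summit within 1 kb of a start listed for the host, and 5 of these were 1 kb or more from the start of the gene row. Besides Robo2 they were in Arih2, a ubiquitin ligase gene (330 bp before a listed start, score 53.67), and Nktr, a cyclophilin-related gene (407 bp before, 54.69). Tgif1, for a homeodomain repressor (693 bp before, 71.52), and Arrdc3, an arrestin-domain gene (706 bp before, 59.93), were the others. All 5 lay on the upstream side of the listed start.

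Within 1 kb of the end lay 9 summits (3.10%, interval 1.64 to 5.79%), 3 of them in Gapdh. The others were in Gm40364 (497 bp), Gm2128 (629 bp) and Pex11g, a peroxisome gene (953 bp). Adam10, which encodes a membrane protease that cleaves the amyloid precursor protein, had its summit 750 bp before its end (score 56.54, height 9), Cltc, for the clathrin heavy chain, 705 bp (54.9, height 8), and Tle4, a corepressor gene, 34 bp (50.03, height 7). The Tle4 summit was the nearest to any gene boundary inside a gene. Just outside, the Pla2g4e summit lay 48 bp and the Atxn3 summit 79 bp beyond the gene (scores 67.86 and 92.39). These were the only 2 peaks that shared bases with a coding gene without having their summit in one.

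Chromosomes differed in how many peaks their genes held. Per Mb of coding gene length, chromosome 17 had the highest density at 0.694 (27 peaks, Poisson interval 0.457 to 1.01) and chromosome 11 came next at 0.549 (31 peaks, 0.373 to 0.779). Chromosome 12 had the lowest autosomal density at 0.143 (6 peaks, 0.0523 to 0.310). Chromosome X held 1 peak in 45.8 Mb of coding genes, in Cldn34d (0.0218 per Mb, 0.000552 to 0.122), and Y held none in 2.29 Mb, where up to 3.69 peaks are allowed by the interval. Among autosomes, the share of peaks that lay inside genes ran from 23.1% on chromosome 12 (6 of 26) to 73.7% on chromosome 19 (14 of 19), and it was 1 of 5 on X and 0 of 4 on Y.

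Markers of microglia and of other brain cells were looked up among the hosts. Of 28 microglia markers 2 held a summit, Cst3 and Sall1, the latter a transcription factor that keeps microglial identity (score 53.41, height 6, 4.316 kb inside the start). Of 9 astrocyte markers 1 did, the glutamate transporter gene Slc1a3 (63.66, height 9), and of 16 neuron markers 2 did, Dlg2 (53.17) and Lrp1b. None of the 11 oligodendrocyte, 9 endothelial and mural or 14 border and blood myeloid markers held one. As shares, the microglia list stood at 7.14% (Wilson interval 1.98 to 22.6%; 1.55% of all coding genes), the neuron list at 12.5% (3.50 to 36.0%) and the astrocyte list at 11.1% (1.99 to 43.5%). The intervals of all 6 marker lists overlap one another. Per Mb, the microglia list held 2.50 peaks (0.302 to 9.02), the neuron list 0.536 (0.111 to 1.57) and the astrocyte list 3.13 (0.0791 to 17.4). All of these intervals hold the 0.331 of all coding genes. Median gene length was 17.6 kb in the microglia list and 56.1 kb in the neuron list. The neuron hosts Dlg2 and Lrp1b measure 1973 and 2058 kb, where the whole neuron list sums to 5.60 Mb.

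Genes for uptake and endocytic traffic held 6 summits in 42 genes, or 1.34 per Mb of their length (interval 0.493 to 2.92). The interval lies above the 0.331 per Mb of all coding genes, and the list was chosen with earlier results of these data known, so nothing is drawn from that. Synj2 led the list with a score of 116.34. Itgav and Itgb3 encode the 2 chains of the vitronectin receptor, which takes part in clearance of apoptotic cells, and scored 53.45 and 53.66. Rab11a, of recycling endosomes, and Rab27a, of lysosome-related organelles, held summits at 90.4 and 75.8% of the gene (65.78 and 70.5, height 8 each). Cltc (54.9) is the other host. Of 32 listed lysosome and autophagy genes, 1 held a summit, Tfeb (50.87, height 6), or 0.406 per Mb (0.0103 to 2.26), an interval that holds 0.331. Ctns (77.63) and Ambra1 (52.4) were hosts outside this list.

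Regulators of small GTPases, the switches of cell movement and membrane traffic, gave 6 hosts of 49 in the list. That is 12.2% (Wilson interval 5.73 to 24.2%), beside 1.55% of all coding genes, and the median gene length was 251.4 kb. Per Mb the list held 0.449 peaks (0.165 to 0.978), an interval that holds the 0.331 of all coding genes. Tiam1 and Tiam2, paralogous exchange factors of RAC1, both held a summit, at 1.77% (score 53.45) and 89.0% (60.04) of the gene. Dock4 (52.61), Rapgef1 (55.22), Arhgap32 (53.67) and Arhgef28 (52.33) were the others. The wider family, taken by symbol from all coding genes, had 13 hosts of 227 and 13 peaks. This is 3.75% of the peaks (interval 1.99 to 6.41%), where the family makes up 2.25% of the summed gene length. Beyond the list it included Rapgef6, Rin2, Rab31 (67.44), Tbc1d4 (67.7), which controls glucose transporter traffic, and Tbc1d22a.

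Synaptic and neural adhesion genes gave the highest number of hosts of any list, and also have the longest genes. In the list 14 of 63 genes held a summit, with a median gene length of 791 kb. Per Mb that was 0.293 (interval 0.164 to 0.483), near the 0.331 of all coding genes. Chl1 and Tenm2 led by score, Opcml, for a neural surface glycoprotein, followed (71.77, height 6), and the others scored under 65. They included Ctnna3, Nrg3, Macrod2, Magi1 (59.93), Robo2, Cntnap5c (52.9), Dlg2, Unc5c, a netrin receptor gene (52.16), Nfasc (52.06), Ntm (50.98) and Slit1, a Robo ligand gene (50.72). Macrod2 is counted in this list although it encodes an ADP-ribose hydrolase and not an adhesion molecule. Taken by symbol, the cadherins, contactins, neurexins and related genes held 6 peaks. This is 1.73% of peaks (interval 0.635 to 3.76%), where they make up 4.14% of gene length. Of the 20 symbol families it was the only one whose share of length lay outside the 95% interval of its share of peaks. The intervals were not corrected for the number of families. Its density was 0.138 per Mb (0.0507 to 0.301), an interval that holds the 0.192 of all genes of 500 kb and over. A difference apart from gene length was not tested. The hosts were Cdh12, Cdh18, Chl1, Cntnap5c, Ctnna3 and Tenm2, and the median gene length of the family was 141.7 kb.

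**Figure D4:**
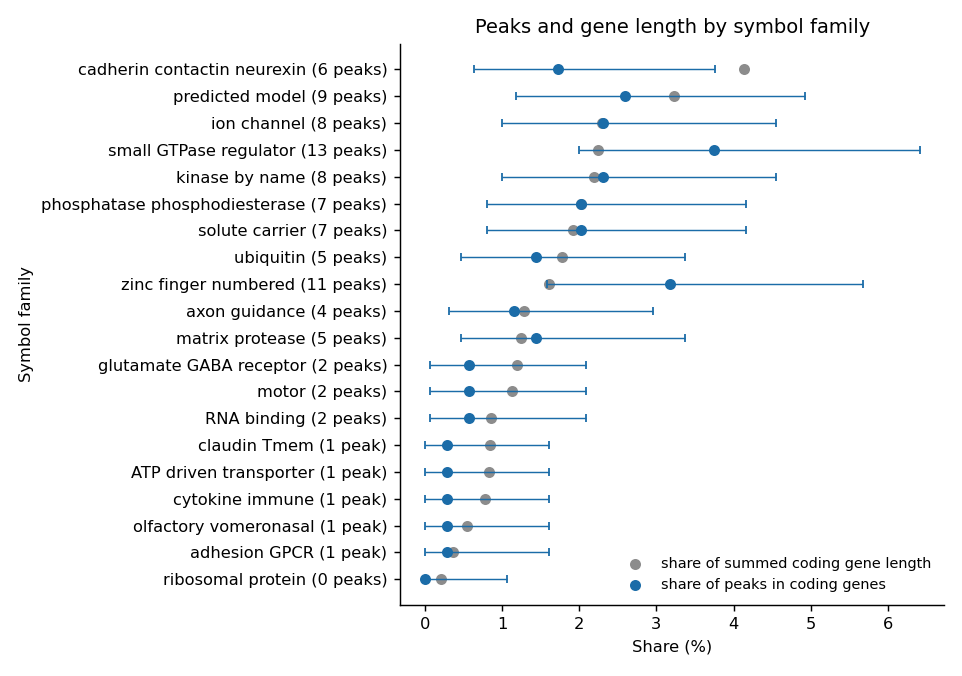
Share of the 347 peaks (blue, with Poisson 95% intervals) and share of summed coding gene length (grey) for 20 families of genes taken by symbol. For cadherins and related genes the grey point (4.14%) lies above the interval of the blue one (1.73%).

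Channel and receptor genes of excitable cells had 7 hosts in the list of 59, at 0.272 peaks per Mb (interval 0.109 to 0.561). Ano2 stood far above the rest by score. The potassium channel genes Kcnd2 (59.73), Kcnq3 (56.57) and Kcnq5 (52.89) followed with heights from 6 to 8. The glutamate receptor gene Gria1 (58.65), the GABA receptor gene Gabrb1 (53.17) and the muscarinic receptor gene Chrm3 (51.52) completed it. By symbol, 8 of 187 channel genes were hosts with 2.31% of the peaks and 2.29% of the gene length. Those outside the list were Kcnq1 (67.28), Kcnh8 (77.06), Kcnc2 (53.67) and Ano10 (75.56). With Kcnq1, 3 of the 5 Kcnq genes held a summit. This group is not among the fixed lists or families. Its hosts measure 320.2 kb (Kcnq1), 300.3 kb (Kcnq3) and 564.3 kb (Kcnq5). Of all genes of 100 to 500 kb 6.55% were hosts, and of those of 500 kb and over 14.5% were.

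Genes for chromatin regulators gave 7 hosts of 72. Crebbp and Kat2b, which encode the acetyltransferases CBP and PCAF, had their summits near the end of the gene, at 95.6 and 91.6% (scores 53.67 and 59.93). Ehmt1, for a histone H3 methyltransferase, had it at 9.59% (55.2) and Tet2, for a DNA demethylation enzyme, at 22.3% (62.21). Kdm2b, a demethylase gene (56.87), Jarid2, of the Polycomb complex (50.46), and Hmgb2 were the others. The 7 peaks made 1.04 per Mb (interval 0.417 to 2.14). The interval lies above the density of all coding genes, which is given as a description for the reason named for the uptake list. The list of nuclear partners of GAPDH, named from textbook knowledge, had 2 hosts of 10, the same Crebbp and Kat2b. That is 20% (Wilson interval 5.67 to 51.0%), beside 1.55% of all coding genes, or 4.45 peaks per Mb (0.538 to 16.1). These genes measure 132.6 and 105.9 kb, and 6.55% of genes of 100 to 500 kb were hosts. For the reason named for the uptake list, nothing is drawn from this count.

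Among genes listed as transcription factors or other regulators of transcription, 5 of 79 were hosts with 7 peaks (0.412 per Mb, interval 0.166 to 0.849). They were Zfhx3 with 3 peaks, Klf12 (74.02, height 9), Tcf7l1, of the Wnt pathway (60.04), Sall1 and Auts2 (50.72). Zinc finger genes by symbol held 11 peaks in 10 of 469 genes, 3.17% of peaks (interval 1.58 to 5.67%), beside 1.61% of gene length. Zfhx3 and Zbtb7c are in this family. Zfp949 led it, and Zfp574 (69.2), Zfp993 (60.59), Zfp13 (53.67), Zfp512 (53.17) and Zfp366 (53.45) were lower. Zfp809, a silencer of retroviral elements, and Zfp599 overlap and share 1 summit (57.69, height 7). The only other summit in 2 coding genes lay in Pds5b, a cohesin regulator gene, and the predicted gene Gm40353 (51.52). Many zinc finger genes have close copies, so which copy a read came from is uncertain here.

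In metabolism, Gapdh was the only host among 38 listed genes of glycolysis, the citrate cycle and oxidative phosphorylation. That is 2.63% (Wilson interval 0.466 to 13.5%), beside 1.55% of all coding genes, in genes that sum to 0.944 Mb. The 3 Gapdh peaks made 3.18 per Mb of this list (0.655 to 9.29), a value that rests on 1 gene. The list does not hold every gene of energy metabolism, and Ldhc (53.67) and Etfdh (50.54) were hosts outside it. Lipid genes gave 2 hosts of 40, Acacb and Ppargc1a, for a coactivator of mitochondrial genes (68.67, height 7, at 6.58% of the gene). Ubiquitin and peptidase genes gave 5 of 56, among them Dpp9, Fbxl17 (63.61), Dpp10 (59.98) and Ube2e2 (54.17). Motor and cytoskeleton genes gave 2 of 60, Myo7a and the axonemal dynein gene Dnah9 (59.93), at 0.133 per Mb (interval 0.0161 to 0.481). Of 37 listed genes of the p53 pathway, repair and cell death, 1 was a host, the stress-induced Sesn1 (56.17). Cdkn2a (50.54) was a host outside this list. Per Mb the lipid list held 0.487 (0.0589 to 1.76), the ubiquitin and peptidase list 0.516 (0.168 to 1.20) and the p53 list 0.459 (0.0116 to 2.56). These intervals and that of the motor list hold the 0.331 of all coding genes.

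Immune genes gave 1 host in each list. The lists do not hold every gene of these pathways, and Tank (50.54) was a host outside them. Of 52 genes of Toll-like receptor and NF-kB signalling, 1 held a summit, Nfkb1 (56.95, height 7), and of 45 genes of complement, the interferon response and antigen presentation 1 did, C9 (60.42, height 10). These shares, 1.92% (Wilson interval 0.340 to 10.1%) and 2.22% (0.393 to 11.6%), have intervals that hold the 1.55% of all coding genes. Median gene lengths were 15.7 and 12.05 kb, beside 17.2 kb for all coding genes. Per Mb they held 0.775 (interval 0.0196 to 4.32) and 0.980 (0.0248 to 5.46), and these intervals hold the 0.331 of all coding genes. Of 282 cytokine, chemokine and receptor genes by symbol 1 held a summit, Il17f, for an interleukin (54.23, height 6). All ribosomal protein genes (178, summed length 2.26 Mb) were without one, and of 1476 olfactory and vomeronasal receptor genes 1 held a summit, Olfr183 (56.54). Per Mb the cytokine family held 0.122 (0.00310 to 0.682) and the olfactory family 0.173 (0.00439 to 0.966), and both intervals hold 0.331.

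Over all 21 lists, 62 of 799 genes in the table were hosts with 68 peaks, or 0.423 per Mb (interval 0.329 to 0.536). A further 2 entries, Mx1 and Mx2, are pseudogenes in the table. In the kinase family by symbol, 8 of 223 genes were hosts, of which Stk11ip, Cdk5rap2 and Mapk1ip1l carry a kinase in their name without encoding one. The kinases among these hosts were Map3k5 (50.72) and Map2k6 (59.34) of stress signalling, Cdk6, Ror1 and Prkg1. The symbol family misses other kinase genes, such as the host Eif2ak3, so it does not count all kinases. It held 2.31% of the peaks (interval 0.995 to 4.54%), beside 2.19% of the gene length. Of the 337 hosts, 9 were predicted or clone-named genes.

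A further 17 summits in coding genes also lay in a long non-coding RNA gene. These shared places included the summits in Ubxn4 (with Gm41949), Col13a1, a transmembrane collagen gene (Gm30121, score 84.69), Stab2, a scavenger receptor gene (Gm16271, 65.47), Nfkb1 (Gm46827) and 2 of the 3 in Zfhx3 (both Gm42043). For these peaks the coding gene is a host by position only. Of neighbouring coding genes, 7 pairs were both hosts, among them Opcml and Ntm, App and Cyyr1, and Kdm2b and Orai1. The 7 include the 2 overlapping pairs that share a single summit, Pds5b with Gm40353 and Zfp809 with Zfp599. How many pairs an even spread would give was not computed, so nothing is drawn from this count. App, the amyloid precursor gene, held its summit at 82.8% of the gene (52.33, height 7), and Orai1, for the pore of store-operated calcium entry, at 57.5% (71.97, height 9).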

How the data were processed

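Chromatin of LPS-treated mouse microglia was profiled by ChIP-seq in 2 AceGAPDH and 2 input libraries. The submitters' processing notes name FastQC, Bowtie2, MACS and the build mm10. Versions, settings and the libraries used in the call are not stated there. The deposited peak list holds a score per peak, made by the authors on a scale the file does not state. The deposited summit list holds the signal, a pileup height, at each summit. Lists were joined by peak name and positions are 1-based.

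Genes came from a RefSeq table of GRCm38.p6. Of 49943 genes on 21 chromosomes, 340 starting in the first 3 Mb of chromosomes other than Y were left out. Strand was read from RefSeq promoter windows for 17492 of 21779 coding genes. Where 2 coding genes held a summit, the shorter was the host for values per peak. Density is peaks divided by summed gene length. Wilson, exact Poisson, exact conditional and order-statistic intervals (95%) were computed with Python 3.11.15 (scipy 1.17.1, pandas 2.3.3, numpy 2.4.6). Figures used matplotlib 3.10.9. The code that assigns summits to genes was checked on simulated peaks of known position, and no statistical test was made on the deposited peaks. Named genes were hosts of the 20 highest-scoring and 10 highest peaks, hosts of several summits, the 10 longest and shortest hosts, hosts within 1 kb of a gene start (or of either end without strand), hosts in lists, hosts on X and Y, and peaks in 2 genes; other genes were named after their values were seen. Values of 1 host that the rule names are not reported here. Members, lists and rules were chosen with earlier results of these data known.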

Additional observations from a re-analysis of the deposited data

How the results depend on the processing

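No paired analysis was possible because the deposited list has no value per library; for the same reason no library could be left out. Across 13 settings, 69 of 92 recomputed values stayed within the interval of the reported value or within 1.5 times a count. Settings on autosomes, without Gapdh, and densities without predicted genes were chosen after seeing the data, as were the 5 kb counts and the density ratio. The ratio of density in genes of 500 kb and over to shorter genes lay between 0.447 and 0.549 in all 5 settings in which it was recomputed. Limiting the list to scores at or above its median removes peaks by construction: 164 peaks in 162 genes remained, with 33 hosts in lists and 48 in families, 27 peaks in the first and 14 in the last 5 kb, a median score of 63.635 and length of 171 bp. Densities were then 0.183, 0.158, 0.166 and 0.0778 per Mb in genes of 10 to 50, 50 to 100, 100 to 500 and 500 kb and over. At scores of at least 100, 16 peaks in 14 genes remained, with a median height of 15.5, score of 132.955, length of 183.5 bp and host length of 62.8 kb, and 20% lay within 1 kb of the gene end, all in Gapdh. The windows of 500 bp and 5 kb, which differ in size by construction, gave 1.72 and 17.2% at the start and 1.03 and 9.66% at the end.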

Other observations

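Some groups of related hosts were noticed after their values were seen and are given as counts. Such small groups were picked because they hold hosts, so nothing is drawn from their shares. Of all coding genes 1.55% were hosts, and of those of 100 to 500 kb 6.55% were. Genes for 2 of the 3 sensors of the unfolded protein response, the reaction to misfolded protein in the endoplasmic reticulum, held a summit: Eif2ak3 (score 95.11, height 14) and Atf6 (56.54, height 6). Of 4 platelet-derived growth factor genes, Pdgfc (50.72) and Pdgfd (59.93) were hosts. Both Mbnl1 (56.54) and Mbnl2 (53.02), of the 3 genes for muscleblind splicing regulators, held a summit. Integrin genes gave 3 of 31, Itgav, Itgb3 and Itga9 (63.61). Of 30 sorting nexin genes, Snx5, Snx8 and Snx25 were hosts, with scores from 53.67 to 57.01.

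Several hosts with higher scores belong to none of the fixed lists. Snd1, for a nuclease-like coactivator, scored 88.61 with its summit 8.111 kb inside the start of a 454.8 kb gene. Ets2, a transcription factor gene, scored 88.49, Flot2, for a membrane raft protein, 82.75 at a height of 13, and Ctns, for the lysosomal cystine transporter, 77.63. Havcr2, which encodes the immune checkpoint receptor TIM-3, scored 70.5 at a height of 10.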
